A study of Mus musculus with 19 samples.

Results

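The genes described here are 33 transcripts of brain cholesterol handling, taken by gene symbol from a count table of 57010 genes. They comprise 5 genes of SREBP regulation, 18 of mevalonate and sterol synthesis, and 10 of cholesterol transport, efflux and oxysterol metabolism. All 33 passed the expression filter that left 17757 genes for testing. The 19 RNA libraries were made from WT mice, the tissue being labelled medial prefrontal cortex, and gavage ran for 8 days and intraperitoneal injection for 5 days in every group. The 4 control libraries came from mice given saline by both routes. LPS, a bacterial cell wall lipid that triggers inflammation, was injected at 1 mg/kg for those 5 days in a pair of groups with 5 libraries each, the gavage having begun 3 days earlier. The LPS group had saline by gavage, and the co-treated group had sedanolide, a phthalide found in celery, at 20 mg/kg. The sedanolide group, of 5 libraries, received 20 mg/kg with saline injections. The labels do not say whether the replicates are separate animals, so the p-values measure the spread between these libraries only.

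Most cholesterol in the brain is made there, because lipoproteins of the blood do not cross the blood-brain barrier. When sterol is low in the endoplasmic reticulum, SCAP carries the SREBP transcription factors to the Golgi, where they are cut and released, and SREBP-2 in particular turns on the genes of sterol synthesis; INSIG proteins hold SCAP back when sterol is plentiful. When sterol accumulates, oxysterols activate the liver X receptors, which turn on efflux genes, and neurons dispose of cholesterol by converting it to 24-hydroxycholesterol.

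Library totals ranged from 19083707 to 24318856 counts. The olfactory bulb marker Cdhr1 stood at 57.6 to 444 CPM (read counts scaled to a common library size) in 7 libraries, called bulb-rich here, and at 2.29 to 9.91 CPM in the 12 bulb-poor ones. Bulb-rich were replicates 1 and 5 of the controls, 2 to 4 of the LPS group, 3 and 4 of the sedanolide group and none of the co-treated group. Main results are therefore given also within the 12 bulb-poor libraries, which were 2 control, 2 LPS, 3 sedanolide and 5 co-treated libraries. The 6 neuronal markers, among them Snap25 and Slc17a7, summed to 4774 to 7125 CPM, and none of the 6 was at 0 in any library. In bulk tissue, fewer cells of a type and less RNA per cell cannot be told apart.

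The members differed widely in level. Per kilobase of exon, averaged over all libraries, Apoe, the main lipoprotein component made in the brain, was highest at 994 CPM per kb. It was followed by Hmgcs1 at 54.3 CPM per kb, the enzyme that makes HMG-CoA, and by Cyp46a1 at 46.9 CPM per kb, the neuronal cholesterol 24-hydroxylase. Srebf2, which encodes SREBP-2, stood at 37.1 CPM per kb and Insig1 at 22.9 CPM per kb. At the lower end were Lss (lanosterol synthase) at 2.81, Nr1h3 (liver X receptor alpha) at 1.38 and Ch25h (cholesterol 25-hydroxylase) at 0.952 CPM per kb. The sister receptor gene Nr1h2 (liver X receptor beta) stood at 15.2 CPM per kb.

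**Figure D1:**
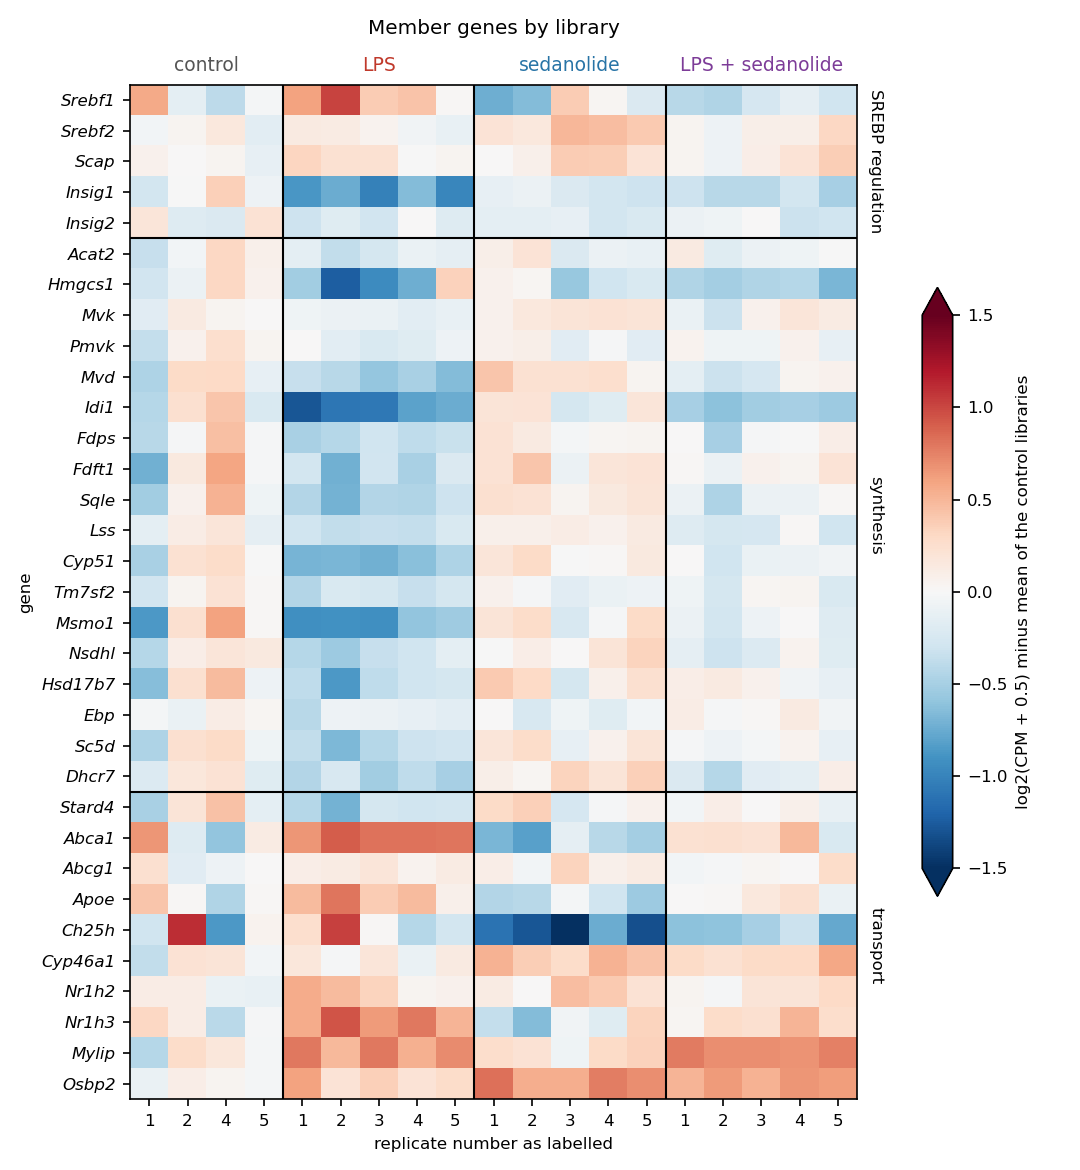
Each row is a member gene and each column a library; colour is log2(CPM + 0.5) minus the mean of the 4 control libraries on the same scale, and colour is saturated beyond 1.5 in either direction. Between 17 and 18 of the 18 synthesis genes were below the control mean in each LPS library, as were 18 in control replicate 1, whereas Mylip and Osbp2 were above it in every LPS and co-treated library.

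The first comparison sets LPS against controls. Of the 18 sterol synthesis transcripts 10 fell after LPS, and of the 10 transport, efflux and oxysterol transcripts 4 rose. Of the 33 members 15 were called, meaning an adjusted p under 0.05 in edgeR's quasi-likelihood test over all genes; 10.9% of all genes tested were called. Among the 18 synthesis genes, all 10 calls were lower, while 2.44% of all genes were called lower and 8.47% higher. The median log2 fold change of the 18 was -0.44, beside -0.0034 over all genes, and all 18 estimates were negative. For 3 of the 18 (Idi1, Lss and Dhcr7) every LPS library lay below every control library, which held for 2.8% of all genes.

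Insig1, an SREBP target whose protein retains SCAP, was the 1 regulator of 5 that was called. Its control libraries (replicates 1, 2, 4 and 5) read 73.9, 89.2, 115 and 85.3 CPM and its LPS libraries 48.6, 53.5, 44.0, 56.9 and 45.3 CPM. All 5 LPS libraries lay below all 4 controls. Its log2 fold change was -0.87 (SE 0.10, adjusted p = 7.36e-06), and leaving out any one of the 19 libraries did not end the call. In the bulb-poor libraries the difference was -1.13 (adjusted p = 5.54e-05), and the 2 controls kept there were the 2 highest of the 4. The other regulators were not called. Srebf1, which encodes SREBP-1, stood at 62.1 ± 19.2 CPM (SD, n = 4) in controls and 86.8 ± 22.4 CPM (SD, n = 5) after LPS, a log2 difference of 0.48 (adjusted p = 0.206). Srebf2 differed by 0.027, Scap by 0.17 and Insig2 by -0.21 on the log2 scale, with adjusted p from 0.201 to 0.9.

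Early in the pathway, the steps from acetyl-CoA to the isoprenoid precursors, Idi1 had the lowest fold change of the 18. It encodes the isomerase that makes dimethylallyl diphosphate. Idi1 stood at 18.7, 29.8, 34.0 and 21.4 CPM in the controls and at 10.1, 11.7, 11.8, 14.3 and 14.9 CPM in the LPS libraries. The groups did not overlap, and the log2 fold change was -1.05 (SE 0.16, adjusted p = 8.67e-05), called whichever library was left out. Mvd, the decarboxylase that acts just before it, fell by 0.54 on the log2 scale (adjusted p = 0.0127). Fdps, which makes farnesyl diphosphate, fell by 0.42 (adjusted p = 0.0482). Hmgcs1 was not called. Its controls read 250.02, 288, 381 and 321 CPM, and its LPS libraries 214, 130.0, 160, 184 and 389 CPM. Of those, 4 lay below every control, and LPS replicate 5 lay above every control. Its log2 difference was -0.53 (SE 0.23, adjusted p = 0.16). Acat2, which makes acetoacetyl-CoA, and the kinases Mvk and Pmvk showed log2 differences of -0.22, -0.11 and -0.14, with adjusted p from 0.235 to 0.506.

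In the sterol steps from squalene to cholesterol, 7 of the 11 genes that follow farnesyl diphosphate were called. Msmo1, the sterol methyl oxidase, stood at 58.7, 127, 163 and 109 CPM in controls and at 56.5, 56.9, 56.5, 71.2 and 74.2 CPM after LPS. Control replicate 1, a bulb-rich library, lay within the LPS range, and the other controls lay above it. Msmo1 fell by 0.86 (SE 0.19, adjusted p = 0.0054). Cyp51, the lanosterol demethylase, read 67.0, 110.4, 114 and 94.0 CPM in controls against 57.8, 58.5, 57.2, 60.9 and 68.2 CPM. Again 1 control library, replicate 1, overlapped the LPS group. Cyp51 fell by 0.67 (SE 0.12, adjusted p = 0.000528). The smaller called changes were Sqle (squalene epoxidase) at -0.51, Sc5d (sterol C5 desaturase) at -0.44, Dhcr7 (a late sterol reductase) at -0.43, and both Lss and the C14 reductase gene Tm7sf2 at -0.33, with adjusted p from 0.00849 to 0.0389. Nsdhl, a sterol dehydrogenase of the demethylation complex, narrowly missed at -0.38 (adjusted p = 0.0504). Fdft1 (squalene synthase) at -0.46, Hsd17b7 (a sterol ketoreductase) at -0.49 and the isomerase Ebp at -0.17 had adjusted p of 0.103, 0.0846 and 0.22.

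The count depended on the control libraries. Synthesis calls numbered 4 when control replicate 4, the control with the highest synthesis levels, was left out, and 14 without control replicate 1, the lowest. Over the 19 fits with a library left out, Fdps was called in 4 of 19, Tm7sf2 in 12, Sc5d in 15, Sqle in 17, and Mvd and Dhcr7 in 18; the adjusted p of each was highest without control replicate 4, at 0.065 to 0.228. Within the 12 bulb-poor libraries 11 synthesis genes were called lower, with a median of -0.63. There Idi1 differed by -1.38 and Msmo1 by -1.17. That contrast rested on 2 control and 2 LPS libraries, and the 2 controls, replicates 2 and 4, had the highest synthesis levels of the 4. Fitting only the control and LPS libraries gave 4 calls. The 10 oligodendrocyte markers, genes of the cell type with a large sterol demand for myelin, had 0 calls in edgeR (0 at an unadjusted p under 0.05 and 0 in DESeq2), and summed to 2265 to 3916 CPM in controls and 2247 to 4024 CPM after LPS. Of the 7 microglial markers 4 were called higher (sum 390 to 542 CPM in controls, 784 to 950 CPM after LPS), as were all 4 endothelial markers (187 to 280 against 343 to 460 CPM). All 4 neutrophil markers were called higher as well (1.30 to 5.55 CPM against 33.8 to 42.5 CPM). Their part in the result was not tested.

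**Figure D2:**
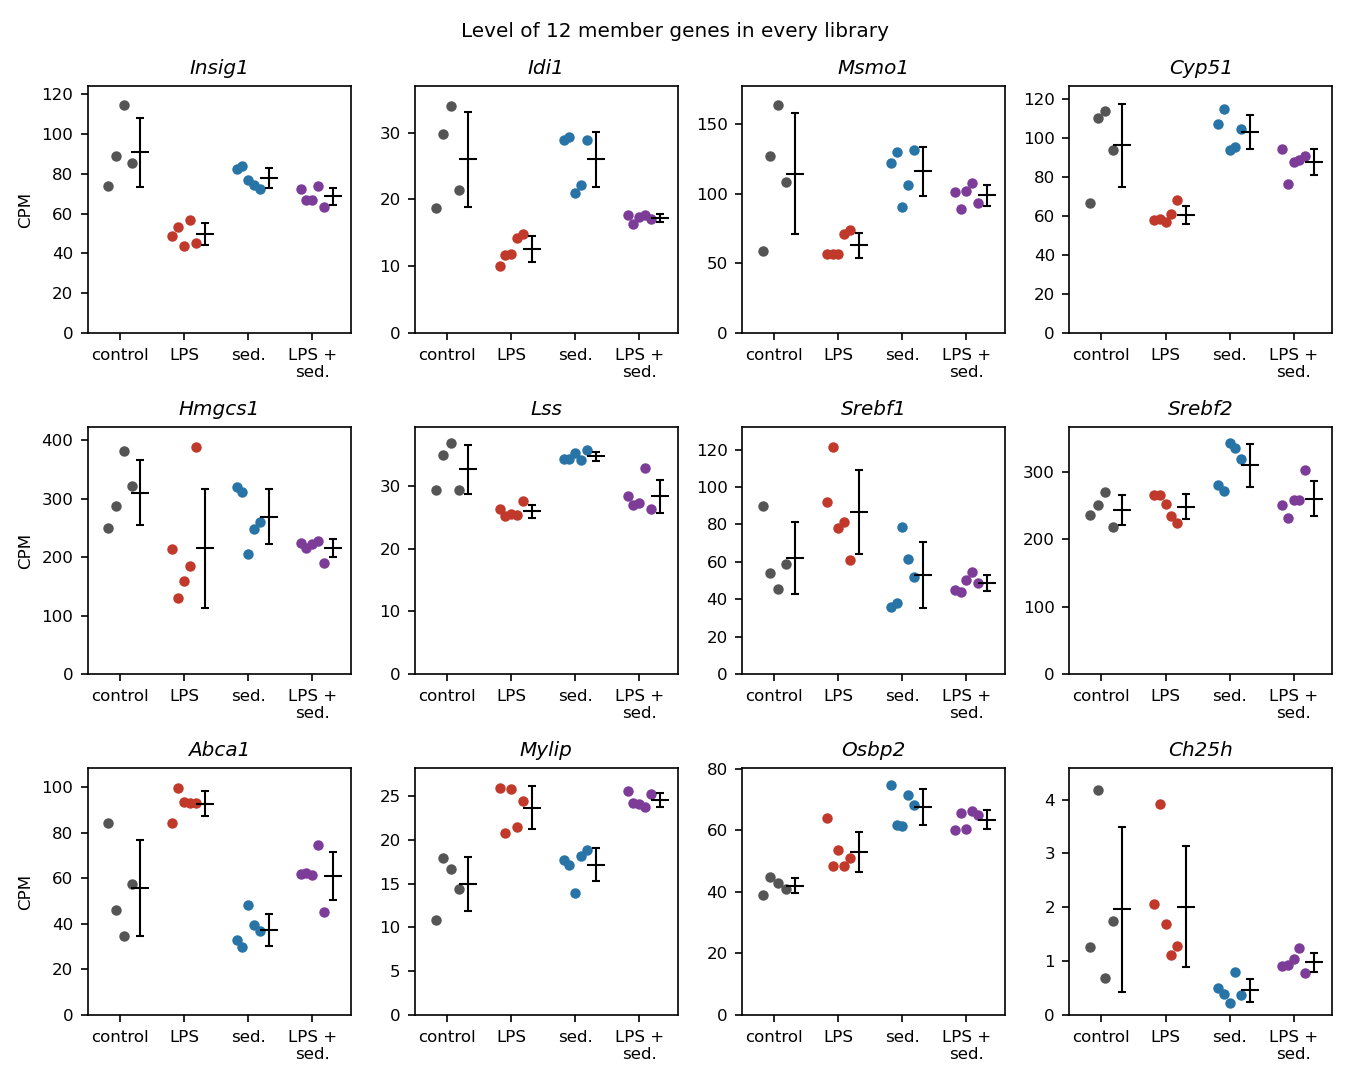
Points are libraries, in replicate order within a group, on a linear axis of CPM starting at 0; the bar beside them is the mean ± SD (n = 4 controls, n = 5 in each other group). Insig1 and Idi1 of the LPS libraries lay below every control library, and every co-treated library lay above every LPS library for both. Mylip averaged 23.7 CPM after LPS and 24.6 CPM in the co-treated group, against 15.0 CPM in controls.

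On the transport side 4 of 10 genes were called after LPS, all higher, and 3 of the 10 (Nr1h3, Mylip and Osbp2) had every LPS library above every control, against 7.92% of all genes. Their median log2 fold change was 0.32. Mylip, a liver X receptor target whose protein marks lipoprotein receptors for degradation, stood at 10.8, 17.9, 16.6 and 14.4 CPM in controls and 25.9, 20.8, 25.8, 21.5 and 24.4 CPM after LPS. It rose by 0.67 (SE 0.12, adjusted p = 0.00072). Abca1, the exporter that loads cholesterol onto apolipoproteins and another liver X receptor target, read 84.3, 46.2, 34.9 and 57.7 CPM in controls and 84.2, 99.8, 93.6, 93.2 and 92.9 CPM after LPS. Control replicate 1 lay within the LPS range and the other controls lay below it. Abca1 rose by 0.73 (SE 0.19, adjusted p = 0.0174). Nr1h3 itself rose by 0.76 (SE 0.20, adjusted p = 0.0183) at a low level of 2.88 ± 0.671 CPM (SD, n = 4) in controls. Osbp2, an oxysterol-binding protein gene, rose by 0.34 (SE 0.09, adjusted p = 0.0121). Without control replicate 4 the count of transport calls was 2, with adjusted p of 0.0603 for Abca1 and 0.072 for Nr1h3; Nr1h3 also lost its call without control replicate 5 (adjusted p = 0.0594). The microglial, endothelial and neutrophil markers given above moved with these genes too, and their part was not tested. In the bulb-poor libraries Abca1 stood at 1.11 (adjusted p = 0.00182) and Mylip at 0.52 (adjusted p = 0.00984), while Nr1h3 and Osbp2 were not called (adjusted p = 0.255 and 0.119). The 2 bulb-poor controls had the lowest Abca1 and the highest Mylip of the 4 controls.

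The remaining transport genes were not called. Apoe, another liver X receptor target, stood at 2045 ± 491 CPM (SD, n = 4) in controls and 2752 ± 499 CPM (SD, n = 5) after LPS, a log2 difference of 0.43 (adjusted p = 0.0902). Stard4, which carries cholesterol between membranes and is an SREBP target, was the only transport gene with a negative estimate, -0.43 (adjusted p = 0.0792). It was called lower in the bulb-poor libraries (-0.70, adjusted p = 0.00265), where the 2 controls had the highest Stard4 of the 4. Nr1h2 at 0.31, Abcg1 (a second efflux transporter) at 0.11, Cyp46a1 at 0.060 and Ch25h at 0.045 had adjusted p from 0.0979 to 0.962.

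The genes of the synthesis and transport arms can be set beside their promoters. RefSeq windows (mouse build GRCm38.p6) running from 250 bases before to 50 bases after the start site were at hand for 28 of the 33 members. The sterol regulatory element was searched as TCACNCCAC, where N is any base, and the binding word of NF-Y, a factor that works beside SREBPs, as CCAAT; both strands were read and the 2 words share no overlap in the stretches shown. CCAAT was present for 14 of 15 synthesis genes with a window (93.3%), 4 of 5 regulators and 2 of 8 transport genes (25%), and for 41.1% of 27025 genes. The sterol regulatory element in this strict spelling was present for 1 member, Hmgcs1, and for 1.44% of genes. The liver X receptor element was searched only as an exact AGGTCA repeated after 4 bases. That strict spelling was present for 0 of the 28 and for 4 genes in all. Variant spellings of these elements were not searched, so a member without a match, such as Abca1, may still hold such an element. The 250 bases before the start are shown 5′ to 3′ on the gene's strand for the called regulator Insig1, for the 3 synthesis genes with the lowest fold changes after LPS, for Hmgcs1 as the 1 member with the sterol element, and for Abca1 as a called gene of the transport side. Capitals mark CCAAT or its reverse complement ATTGG and, in Hmgcs1, also the element TCACCCCAC. Their positions are chr5:28071162-28071411 (Insig1, plus strand), chr13:119690101-119690350 (Hmgcs1, plus), chr13:8885356-8885605 (Idi1, plus), chr8:64733579-64733828 (Msmo1, minus), chr5:4104698-4104947 (Cyp51, minus) and chr4:53159896-53160145 (Abca1, minus).
Insig1: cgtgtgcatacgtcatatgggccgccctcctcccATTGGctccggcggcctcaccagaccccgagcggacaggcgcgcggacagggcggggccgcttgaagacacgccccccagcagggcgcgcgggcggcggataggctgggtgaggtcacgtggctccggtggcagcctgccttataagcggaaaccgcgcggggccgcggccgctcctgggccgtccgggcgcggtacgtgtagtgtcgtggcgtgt
Hmgcs1: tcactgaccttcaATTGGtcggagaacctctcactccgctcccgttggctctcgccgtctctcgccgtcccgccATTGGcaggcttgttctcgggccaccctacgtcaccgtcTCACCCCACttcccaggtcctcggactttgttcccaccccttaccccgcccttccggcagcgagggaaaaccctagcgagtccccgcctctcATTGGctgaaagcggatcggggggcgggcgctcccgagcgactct
Idi1: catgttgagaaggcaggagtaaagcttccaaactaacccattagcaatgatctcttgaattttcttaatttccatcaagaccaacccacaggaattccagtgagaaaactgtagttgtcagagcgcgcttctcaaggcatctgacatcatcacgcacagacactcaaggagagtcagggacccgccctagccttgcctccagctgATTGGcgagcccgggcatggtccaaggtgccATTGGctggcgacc
Msmo1: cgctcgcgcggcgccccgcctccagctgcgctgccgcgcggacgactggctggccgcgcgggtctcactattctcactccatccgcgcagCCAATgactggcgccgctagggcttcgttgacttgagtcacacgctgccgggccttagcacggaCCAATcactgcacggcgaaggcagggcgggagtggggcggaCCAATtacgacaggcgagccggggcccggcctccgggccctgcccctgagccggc
Cyp51: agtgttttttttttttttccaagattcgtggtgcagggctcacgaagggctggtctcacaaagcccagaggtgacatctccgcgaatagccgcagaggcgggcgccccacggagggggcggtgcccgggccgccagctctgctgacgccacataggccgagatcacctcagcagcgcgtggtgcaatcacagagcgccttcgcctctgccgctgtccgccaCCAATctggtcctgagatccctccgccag
Abca1: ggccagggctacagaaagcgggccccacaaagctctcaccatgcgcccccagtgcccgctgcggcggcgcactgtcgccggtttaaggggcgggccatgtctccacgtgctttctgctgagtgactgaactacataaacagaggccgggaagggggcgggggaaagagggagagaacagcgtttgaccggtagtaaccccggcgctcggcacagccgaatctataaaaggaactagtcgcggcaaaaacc
Counting capitals, Hmgcs1 and Msmo1 each held 3 CCAAT words, Idi1 held 2, and Insig1 and Cyp51 held 1; the stretch of Abca1 held 0. In Hmgcs1 the sterol element began 137 bases before the start. Mylip, which was higher after LPS, also held 3 CCAAT words, so the word was found in genes of either direction. These matches are letters only and show no binding.

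Sedanolide given on top of LPS was compared with LPS alone, using the same LPS libraries as above. Insig1 and Cyp51 were higher in the co-treated group and were the 2 of 33 members called, where 1.97% of all genes were called, 0.287% higher and 1.68% lower. Insig1 read 72.3, 67.1, 67.1, 73.9 and 63.5 CPM in the co-treated libraries, all above the highest LPS library at 56.9 CPM. It rose by 0.47 (SE 0.10, adjusted p = 0.0181) and was not called without LPS replicate 3 (adjusted p = 0.0544) or without co-treated replicate 1 (adjusted p = 0.0551). Cyp51 read 94.7, 76.7, 88.0, 88.6 and 90.8 CPM, again with no overlap with the LPS group. It rose by 0.54 (SE 0.11, adjusted p = 0.0168), and was not called without LPS replicate 2 (adjusted p = 0.0503) or without co-treated replicate 1 (adjusted p = 0.0545).

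Across the 18 synthesis genes 1 was called, while the 18 estimates were positive with a median of 0.29 beside -0.013 for all genes; with the olfactory bulb index as a covariate Hmgcs1 turned to -0.26 and Pmvk to -0.020. For 8 of them (Mvd, Idi1, Fdft1, Cyp51, Msmo1, Hsd17b7, Ebp and Sc5d) every co-treated library lay above every LPS library, against 3.33% of all genes. Msmo1 stood at 101, 88.8, 102, 108 and 93.7 CPM in the co-treated libraries, with a log2 difference of 0.65 (adjusted p = 0.0757). Idi1 was narrow in this group, at 17.7, 16.3, 17.4, 17.7 and 17.1 CPM, a difference of 0.46 (adjusted p = 0.113). At the other end, Hmgcs1 differed by 0.0049 (95% interval -0.45 to 0.46). The count of synthesis calls ran from 0 without LPS replicate 2 or co-treated replicate 1, through 2 without control replicate 4, to 5 without control replicate 1. It was 7 with only these 2 groups in the fit, 3 with DESeq2 and 0 in the bulb-poor libraries, where Insig1 was called (0.56, adjusted p = 0.0411) and Cyp51 was not (0.49, adjusted p = 0.0629). With an olfactory bulb index as a covariate Insig1 stood at 0.41 (adjusted p = 0.094) and Cyp51 at 0.37 (adjusted p = 0.0865). The 4 bulb markers summed to 3.03 to 8.01 CPM in the co-treated libraries and to 8.14 to 292 CPM in the LPS libraries. The oligodendrocyte markers summed to 2165 to 3031 against 2247 to 4024 CPM, and all 4 neutrophil markers and 1 endothelial marker were called lower. Beyond the fits with marker covariates, the part of these was not tested.

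Transport genes had 0 calls in this comparison in edgeR, with 7 at an unadjusted p under 0.05 (3 higher, 4 lower) and 2 called by DESeq2 (1 higher, 1 lower); the edgeR count was 1 without control replicate 4. Abca1 was lower in every co-treated library (62.1, 62.5, 61.4, 74.5 and 45.0 CPM) than in any LPS library, yet its difference of -0.60 (SE 0.18) had an adjusted p of 0.0914. Srebf1 showed the same arrangement, at 44.8, 43.9, 50.4, 54.6 and 48.8 CPM in the co-treated group against 61.0 to 122 CPM after LPS. Its difference of -0.84 (SE 0.22) had an adjusted p of 0.0521, and it was called in 6 of the 19 fits with a library left out. Groups separated downward in this way for 4.59% of all genes. Mylip differed by 0.053 (95% interval -0.18 to 0.29; -0.12 with the bulb covariate), with 25.6, 24.2, 24.1, 23.8 and 25.2 CPM in the co-treated libraries. Apoe at -0.39, Nr1h3 at -0.48 and Ch25h at -1.05 also had adjusted p above the threshold (0.162 to 0.181). In the other direction, Stard4 at 0.40 (adjusted p = 0.155) and Cyp46a1 at 0.26 (adjusted p = 0.172) had every co-treated library above every LPS library, and Osbp2 stood at 0.26 (adjusted p = 0.0996).

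**Figure D3:**
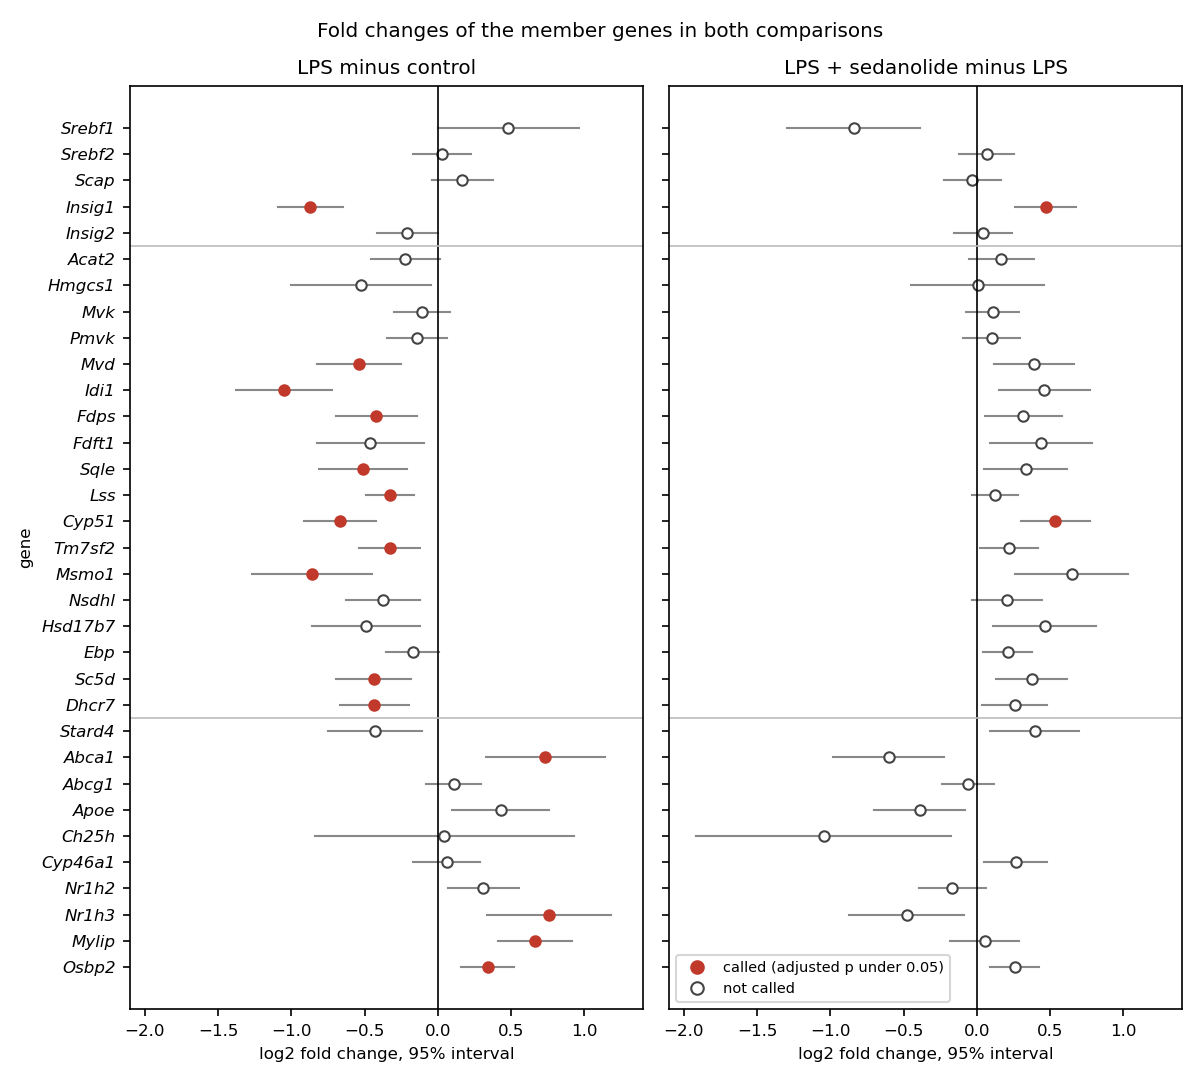
Points are log2 fold changes of the 33 members with 95% intervals (horizontal lines) for LPS against control on the left and co-treated against LPS on the right; filled points were called at an adjusted p under 0.05. On the left all 18 synthesis genes lay below 0 with 10 called, and on the right they lay above 0 with Cyp51 called; the 2 panels share the LPS libraries.

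The difference of the LPS effect with and without sedanolide was tested as an interaction over all 4 groups. Insig1 was the 1 member called, where 0.586% of all genes were called, 0.214% higher and 0.372% lower; its LPS effect was 0.69 log2 units less negative under sedanolide (SE 0.14, adjusted p = 0.0407). The call held in 6 of the 19 fits with a library left out, with adjusted p up to 0.0862 (without control replicate 5). In the bulb-poor libraries the estimate was 0.94 (adjusted p = 0.0195), and with an oligodendrocyte index as covariate it was 0.69 (adjusted p = 0.0729), not called. For synthesis genes the interaction had 0 calls by edgeR and by DESeq2, with 5 at an unadjusted p under 0.05. Msmo1 had an estimate of 0.63 (adjusted p = 0.257), Idi1 of 0.46 (adjusted p = 0.303) and Cyp51 of 0.44 (adjusted p = 0.207). No transport gene was called by edgeR, 2 had an unadjusted p under 0.05 and DESeq2 called 1; Abca1 stood at -0.027 (95% interval -0.58 to 0.53).

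Against controls, which share libraries with the comparisons above, the co-treated group had calls on both arms. Over the 33 members, however, calls came at about the share of all genes. Idi1 and Insig1 were called lower and Mylip and Osbp2 higher, 4 of 33 members, where 11.1% of all genes were called, 6.38% higher and 4.69% lower. Idi1 fell by 0.59 (SE 0.15, adjusted p = 0.0211), with all 5 co-treated libraries below all 4 controls, as 4.92% of all genes did. Insig1 fell by 0.40 (SE 0.10, adjusted p = 0.0204). Without control replicate 4 neither was called, with adjusted p of 0.0608 and 0.0592. Mylip rose by 0.72 (SE 0.12, adjusted p = 0.000631) and Osbp2 by 0.60 (SE 0.09, adjusted p = 0.000117), and no single library ended either call. Transport calls numbered 4 without control replicate 4. The microglial markers summed to 731 to 977 CPM in the co-treated libraries, with 4 of 7 called higher, and all 4 bulb markers were called lower. Also called higher were all 4 neutrophil markers, 3 of 4 endothelial markers and 1 of 4 oligodendrocyte precursor markers (Gpr17). The neuronal marker Gad2, the astrocyte marker Slc4a4 and the erythroid marker Hba-a2 were called lower. Apart from the fits with marker covariates, the part of all these was not tested. The synthesis median was -0.12, and in the bulb-poor libraries it was -0.34 with 5 genes called lower. Cyp46a1 stood at 0.32 with no overlap between groups, as for 7.92% of all genes upward, but with an adjusted p of 0.0601. Hmgcs1, like Idi1, had every co-treated library below every control, at -0.52 (adjusted p = 0.141).

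The co-treated group was also set against sedanolide alone, where both groups had the compound. Called were Idi1 (-0.59, adjusted p = 0.0175), Lss (-0.29, adjusted p = 0.0205) and Dhcr7 (-0.37, adjusted p = 0.0422) as lower and Abca1 (0.71, adjusted p = 0.0239) and Mylip (0.52, adjusted p = 0.00597) as higher. That is 5 of 33 members, while 5.58% of all genes were called, 0.484% of them lower and 5.09% higher. Lss read 34.3, 34.4, 35.2, 34.1 and 35.7 CPM with sedanolide alone and 28.4, 26.9, 27.3, 32.8 and 26.3 CPM in the co-treated group, with no overlap. The same held for Idi1 and, upward, for Mylip, against 1.82% of all genes downward and 5.4% upward. The Mylip call held whichever library was left out, that of Dhcr7 in 9 of 19 fits and that of Abca1 in 11. Synthesis calls numbered 0 without sedanolide replicate 5 and 1 without co-treated replicate 2 or 3, and transport calls numbered 1 without sedanolide replicate 1, 2 or 4 or co-treated replicates 1 to 4. In the bulb-poor libraries Idi1 (-0.73, adjusted p = 0.000336), Abca1 (0.90, adjusted p = 0.000769) and Mylip (0.48, adjusted p = 0.00168) were called, as was Apoe (0.55, adjusted p = 0.011), and Lss and Dhcr7 were not (adjusted p = 0.0674 and 0.158). All 10 oligodendrocyte markers had negative estimates (median -0.44). In edgeR 0 of them were called, 4 had an unadjusted p under 0.05, and DESeq2 called 1. Called higher were 4 of 7 microglial, 4 of 4 neutrophil, 1 of 4 endothelial and 1 of 4 oligodendrocyte precursor markers (Gpr17). With the oligodendrocyte index as covariate Lss and Dhcr7 were not called, while Idi1, Abca1 and Mylip were. Beyond the fits with marker covariates, the part of these markers was not tested.

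Sedanolide alone against controls had Osbp2, Srebf2 and Cyp46a1 called higher, Ch25h called lower and no synthesis gene called. The 18 synthesis genes had 0 calls in edgeR, 0 at an unadjusted p under 0.05 and 0 in DESeq2, with a median of 0.09, and Idi1 stood at 26.0 ± 4.12 CPM (SD, n = 5) against 26.0 ± 7.14 CPM (SD, n = 4) in controls. Called were 4 of 33 members, beside 5.31% of all genes, 3.2% higher and 2.11% lower. Osbp2 read 74.6, 61.6, 61.4, 71.4 and 68.1 CPM against 39.1, 44.8, 43.0 and 40.9 CPM in controls, and rose by 0.68 (SE 0.09, adjusted p = 0.000633). Srebf2 rose by 0.35 (SE 0.09, adjusted p = 0.0406) and Cyp46a1 by 0.41 (SE 0.11, adjusted p = 0.0382), and like Osbp2 both had every sedanolide library above every control, as for 4.4% of all genes; 3.55% were separated downward, 0 of the members among them. Ch25h fell by 2.08 (SE 0.47, adjusted p = 0.0201) at very low levels, 5 to 19 counts per library with sedanolide against 14 to 90 counts in controls. Its controls read 1.25, 4.17, 0.687 and 1.75 CPM, and without replicate 2, the highest of them, the log2 fold change was -1.42.

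Of these 4 calls that of Osbp2 held whichever library was left out. Srebf2 was called in 10 of those 19 fits (adjusted p up to 0.168), Cyp46a1 in 11 (up to 0.135) and Ch25h in 17 (up to 0.0652), each with its highest p without control replicate 5. Transport calls numbered 1 without control replicate 5 or sedanolide replicate 5, and 5 without control replicate 4. Of the 6 neuronal markers 1, Rbfox3, was called higher with sedanolide (0.29, adjusted p = 0.046; sum 5772 to 7125 CPM against 5022 to 6112 CPM in controls), and of the 8 astrocyte markers 1, Gja1, was called lower (-0.28, adjusted p = 0.0463; sum 5677 to 6959 against 4449 to 7121 CPM). Their part in the result was not tested. Within the bulb-poor libraries (3 sedanolide, 2 control) 0 members were called in edgeR, as were 8 of all genes. There Osbp2 stood at 0.60 (adjusted p = 0.0527), Srebf2 at 0.13, Cyp46a1 at 0.21 and Ch25h at -2.56.

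Averaged over each arm, the libraries show the spread behind these counts. The mean log2 difference of the 18 synthesis genes from the control mean lay between -0.54 and -0.28 in the 5 LPS libraries and between -0.27 and -0.041 in the co-treated ones. Sedanolide libraries lay between -0.071 and 0.15. Controls spanned the widest range, -0.40, 0.11, 0.32 and -0.029 in replicates 1, 2, 4 and 5, and all 18 genes of replicate 1 were below the control mean. That library also had the highest Cdhr1, 444 CPM; the bulb-poor controls, replicates 2 and 4, were the 2 above the mean. For the 10 transport genes the LPS libraries lay between 0.21 and 0.42, the co-treated between 0.12 and 0.28, the controls between -0.16 and 0.18 and the sedanolide libraries between -0.17 and 0.038.

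**Figure D4:**
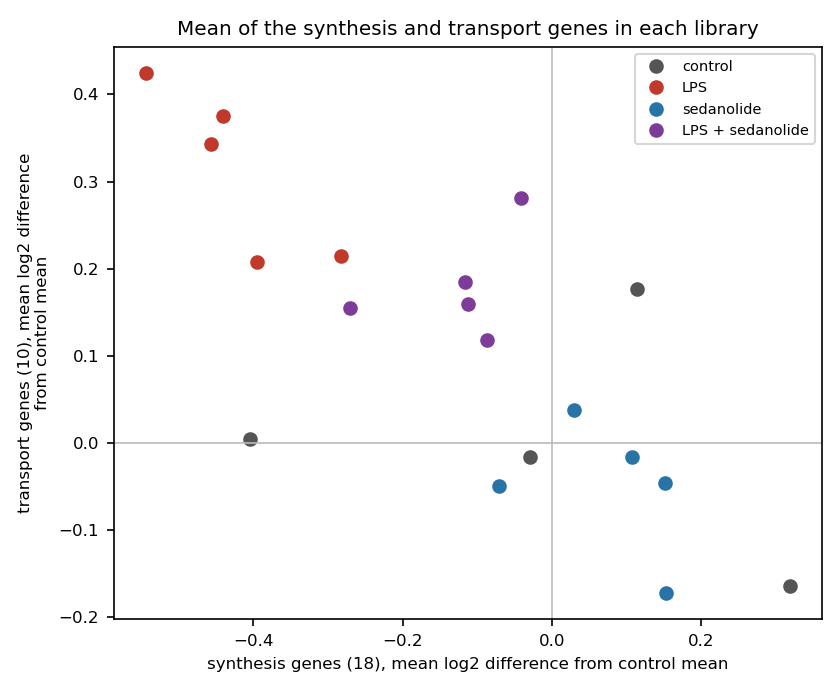
Each point is a library, placed by the mean log2 difference from the control mean over the 18 synthesis genes (horizontal axis) and the 10 transport genes (vertical axis). LPS libraries sat at the upper left and the co-treated libraries between them and 0 on the horizontal axis, while 1 control library (replicate 1) reached -0.40 on that axis without a higher transport mean.

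Other genes of the pathway were counted from lists that overlap none of the members. After LPS, 13 further genes of sterol and isoprenoid synthesis had 1 called higher and 2 lower (median -0.12), where 8.47% of all genes were called higher and 2.44% lower. Named among them, Cyb5r3, a reductase that passes electrons to sterol enzymes, rose by 0.40 (adjusted p = 0.00225), and Erg28, a scaffold of the demethylation complex, fell by 0.29 (adjusted p = 0.0375). Of 16 uptake and storage genes 5 were called higher and 1 lower (median 0.21), beside the same shares of all genes. Npc2, which moves cholesterol out of the lysosome, rose by 0.62 (adjusted p = 0.000159), Lipa, the lysosomal cholesteryl ester hydrolase, by 0.57 (adjusted p = 2.51e-05), Scarb1, a lipoprotein receptor, by 0.52 (adjusted p = 0.00781) and Stard3, a late endosomal sterol carrier, by 0.28 (adjusted p = 0.0359). In the co-treated group against controls, Npc2, Lipa and Stard3 were called at 0.64, 0.53 and 0.29. Of 14 tested genes of a further efflux and oxysterol list 4 were called higher, again beside 8.47% of all genes, including Pltp, the phospholipid transfer protein (0.46, adjusted p = 0.0104), Rxra, a liver X receptor partner (0.55, adjusted p = 0.00608) and Lpcat3, a lysophospholipid acyltransferase (0.36, adjusted p = 0.0397).

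The 6 genes of SREBP processing had 0 calls after LPS in edgeR, with 1 at an unadjusted p under 0.05 and 1 called by DESeq2. The fatty acid genes driven mainly by SREBP-1 (12 genes) likewise had 0 calls after LPS, with 5 at an unadjusted p under 0.05 and 1 in DESeq2, and a median of -0.050. In the co-treated group against controls 2 of the 12 were called, both lower, beside 4.69% of all genes: Scd1 (stearoyl-CoA desaturase) at -0.49 (adjusted p = 0.0379) and Elovl6 (a fatty acid elongase) at -0.34 (adjusted p = 0.0473). Sedanolide alone had 1 of the 12 called, beside 5.31% of all genes: Acaca (acetyl-CoA carboxylase) rose by 0.40 (adjusted p = 0.013).

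Several members share their locus. With mean CPM over all libraries in brackets, Fdft1 (87.5) overlaps Ctsb (668), a lysosomal protease gene, and Cyp51 (86.5) overlaps Akap9 (47.3). Tm7sf2 (13.1) overlaps Vps51 (40.3) and Srebf1 (62.7) overlaps Rai1 (66.1). Insig2 (46.1) overlaps Gm37174 (0.649) and Ch25h (1.32) overlaps Gm26902 (1.03). All of these overlapping genes passed the filter. The sources used here do not give the strand setting of the counting, so reads of overlapping genes may have been assigned to either.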

How the data were processed

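Per the labels' protocols, RNA was extracted with TRIzol and poly(A) libraries were made with a stranded Illumina kit. The submitters' processing notes name fastp, HISAT2, StringTie, RSEM and DESeq2 without roles; versions, genome build and strand setting are not given in the sources used here. The deposited table holds whole-number gene counts, used as the authors deposited them.

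Counts of 19 libraries (19083707 to 24318856 counts each) were filtered with filterByExpr by group, which left 17757 genes, scaled by TMM and fitted in edgeR 4.0.16 (R 4.3.3) with the robust quasi-likelihood test, all 4 groups in a single model with a mean for each. Called means a Benjamini-Hochberg adjusted p under 0.05 over all genes tested. The SE is the absolute log2 fold change divided by the square root of F, and intervals are 95%. CPM values use TMM-scaled library sizes, and arm means use log2(CPM + 0.5). Levels per kb use GENCODE M21 exon lengths.

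The members and gene lists were chosen with earlier results of these data known. All members could be named, and of the other lists the genes called in at least 1 comparison. The labels share replicate numbers. Over 27 same-numbered pairs, deviations from the group means correlated at -0.57 to 0.29, with 4 pairs over 0.1, so the numbers were not treated as pairs. Alternatives were DESeq2 1.42.0, RLE scaling, other filters, offsets for length and GC content, marker covariates, bulb-poor libraries (Cdhr1 at most 20 CPM), the compared groups only, the replicate block and each library left out. The fit was tested on simulated data.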

Additional observations from a re-analysis of the deposited data

Results flagged for a closer look

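In 7 of the 132 sets formed by a member and a group, 1 library lay far from the others of its group by Dixon's criterion, and chance gives about 1 in 20. Co-treated replicate 2 was lowest for Fdps, at 36.3 CPM where the others read 50.8 to 55.3 CPM, and for Sqle, at 49.99 CPM where the others read 65.1 to 70.1 CPM. Co-treated replicate 5 was highest for Abcg1 (71.5 CPM against 57.2 to 60.2) and for Cyp46a1 (195 CPM against 154 to 161). Control replicate 1 was lowest for Nsdhl, at 16.2 CPM against 23.7 to 25.1 CPM. Among LPS libraries, replicate 2 was lowest for Hsd17b7 (14.2 CPM against 19.9 to 21.6) and replicate 1 for Ebp (10.8 CPM against 13.0 to 13.7).

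The LPS effect on Insig1 differed with and without sedanolide, by 0.69 on the log2 scale in the interaction test of edgeR (adjusted p = 0.0407).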

How the results depend on the processing

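No member's called fold change turned sign under the alternatives run, but estimates near 0 that were not called did. Leaving out a library took LPS against control through 0 for Srebf2 (-0.023 to 0.081), Cyp46a1 (-0.052 to 0.13) and Ch25h (-0.35 to 0.70), and the interaction for Abca1 (-0.30 to 0.14). Counts are of called genes, as synthesis, transport, SREBP regulation and all genes, in a fixed order: LPS and then sedanolide, each against control, the co-treated group against LPS, against control and against sedanolide, and the interaction. As reported they were 10, 0, 1, 1, 3 and 0 for synthesis, 4, 3, 0, 2, 2 and 0 for transport, 1, 1, 1, 1, 0 and 1 for regulation, and 1938, 943, 350, 1965, 990 and 104 for all genes. RLE scaling moved none of these by over 1.5 times; for the other settings, the counts that moved so are given.

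With DESeq2, co-treated against LPS had 3 synthesis, 2 transport and 2 regulation calls and 912 genes (202 higher, 710 lower), sedanolide against control 1892 genes, and the interaction 447 genes and 1 transport call. In the bulb-poor libraries all genes called were 848, 8, 35 and 615 in the first 4 comparisons and 20 in the interaction; synthesis calls were 0, 5 and 1 against LPS, control and sedanolide, and sedanolide against control had 0 regulation and 0 transport calls. With the bulb covariate, synthesis calls were 0, 3 and 7 in those 3 comparisons, regulation calls 2 after LPS and 0 against LPS, transport calls 1 in the interaction, and all genes 1466 (sedanolide), 140, 1096 and 314 (interaction). With the oligodendrocyte covariate, regulation calls were 0 for sedanolide and the interaction, synthesis calls 1 against sedanolide and all genes 37 in the interaction.

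A filter of 1 CPM in 4 libraries gave 2 regulation calls against LPS. Without a filter there were 0 regulation calls and 439 genes for sedanolide, 1244 genes against control, and 1 synthesis and 1 transport call against sedanolide. Length and GC offsets gave 2, 1 and 0 regulation calls against LPS, against sedanolide and for sedanolide itself, 2 synthesis calls against control, and 526 (against LPS) and 369 (sedanolide) genes. Fits of only the compared groups gave 1114, 19 and 723 genes in the first 3 comparisons; synthesis calls were 4 after LPS, 7 against LPS and 2 against control, transport calls 2 after LPS, 1 for sedanolide, 2 against LPS and 4 against sedanolide, and regulation calls 0 for sedanolide and 2 against LPS. The cause of these shifts was not tested.

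The replicate block, whose numbers did not pair the samples, gave 6, 0 and 0 synthesis calls (LPS, against LPS, against control), 2, 1 and 1 transport calls (LPS, sedanolide, against sedanolide), 0 regulation calls for sedanolide and the interaction, and 95, 145, 954 and 32 genes (sedanolide, against LPS, against control, interaction). The replicate block with length and GC offsets gave 0 synthesis calls against control, 1 transport call for LPS and for sedanolide, 0 regulation calls for sedanolide and the interaction, and 54, 938 and 37 genes. Across the 19 libraries, 1 library matched best with its own number.

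Leaving out each library in turn gave, in the order above, 4 to 14, 0 to 0, 0 to 5, 0 to 2, 0 to 4 and 0 to 2 synthesis calls; 2 to 6, 1 to 5, 0 to 1, 2 to 4, 1 to 2 and 0 to 0 transport calls; 1 to 1, 0 to 1, 0 to 2, 0 to 1, 0 to 1 and 0 to 1 regulation calls; and 1308 to 2478, 97 to 1410, 141 to 590, 876 to 2907, 762 to 1247 and 33 to 242 genes. Named calls were lost in 93 of 589 such fits. Ch25h had low counts, 14 to 90 per control library, 22 to 91 after LPS, 5 to 19 with sedanolide and 18 to 28 in the co-treated group. Whether depth limited its result was not tested.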
